A study of Mus musculus with 18 samples.

Results

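The comparison described here set the retinas of light-exposed mice given TD139 against those of light-exposed mice given vehicle. It used 12 of the 18 libraries of the series, which are 6 of its 9 mice, chosen by their labelled exposure and treatment and not by any measured value. All animals were wild type BALB/cJ mice (Balb/cJ in the labels), an albino strain, and whole retinas were taken. The 3 vehicle-treated and the 3 TD139-treated mice had received white light of 15000 lux for 1 h and were analysed 4 days later. TD139 was given at 15 mg/kg. By the study's methods it was injected daily into the peritoneum, starting 1 day before the light, and dissolved in DMSO, which was also the vehicle. The remaining 3 mice were naive, with no light and no treatment, so no group received TD139 without light. By the study's methods the mice were young adults of both sexes, and the labels give neither. The study calls the 3 animals of a group biological triplicates, and the 2 libraries of each animal are runs on 2 flow cells, which were summed.

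Galectin-3, encoded by Lgals3, is a lectin that binds galactose-containing sugars on glycoproteins and crosslinks receptors at the cell surface. In the nervous system it is made chiefly by microglia and macrophages that have turned to a reactive, phagocytic state. TD139 is a thiodigalactoside that occupies the sugar-binding site of galectin-3. Bright light damages the photoreceptors of albino mice, and microglia and Mueller glia, the main supporting glia of the retina, respond to that damage.

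Reads on genes numbered 26171887 to 30201517 per mouse in the 6 light-exposed animals. Values are given as CPM, counts per 1000000 reads of the library size after TMM scaling, which corrects for differences in composition between libraries. A count of 3, taken as the floor of detection, stood for 0.101 to 0.119 CPM in these 6 mice and covers counting error only. Fold changes are those of TD139-treated over vehicle-treated mice on the log2 scale, with their standard error (SE), from the quasi-likelihood test of edgeR with all 9 mice in 1 fit. P-values were adjusted over all genes tested by the method of Benjamini and Hochberg, and a gene is said to be higher or lower where its adjusted p was under 0.05. A second fit corrected each mouse for the length and the GC content of transcripts, for the reason given below. Where a fold change is printed with a corrected value beside it and without an adjusted p, the gene passed in that fit. Where a gene list is given in 1 direction, no member passed in the other direction in either edgeR fit of all 9 mice. This does not extend to the fits with 1 mouse left out, where in some lists a member did. Single genes were not given a permutation p, since 3 mice in each group allow none under 0.1 (exact, two-sided).

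Retina markers were abundant in all mice, with Rbp3, which photoreceptors secrete, at 4014 to 5075 CPM in naive mice and Crx, their homeobox factor, at 1333 to 1391, while light-exposed mice had 726 to 1469 CPM of Crx. Vehicle-treated mouse 2 stood apart. The 12 crystallin and other lens genes summed to 18.3, 9943 and 10.9 CPM in the vehicle-treated mice and to 15.6, 2.30 and 306 in the TD139-treated mice, and all 12 were highest in vehicle-treated mouse 2 among the 9 animals. The same held for all 13 skeletal muscle genes, at 19.4, 1558 and 16.8 CPM with vehicle and 13.3, 9.46 and 16.6 with TD139, and for 10 of 13 genes of cornea, conjunctiva and skin, at 9.04, 457 and 21.4 and 6.56, 4.21 and 3.56. Of 12 retinal pigment epithelium genes, 9 were highest in this mouse, at 356, 587 and 271 CPM with vehicle and 256, 159 and 161 with TD139. Blood genes summed to 9.01 to 17.9 CPM with vehicle and 9.43 to 11.8 with TD139, with both alpha globin genes at 0. The 9 listed genes of neutrophils, monocytes and lymphocytes stayed at or below 0.99 CPM in every mouse, and 3 of them (Cd3e, Cd3g and Ms4a1) were at 0 throughout. TD139-treated mouse 1 also stood apart, since its immune and glial genes lay nearer to the vehicle-treated mice than those of mice 2 and 3. Counts are therefore also given without these 2 animals.

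**Figure D1:**
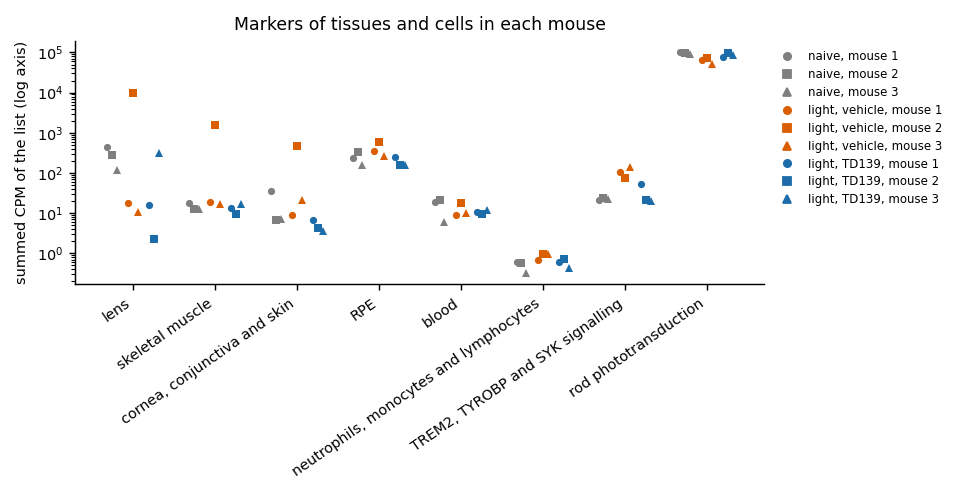
Summed CPM of marker lists on a log axis, 1 point per mouse, for tissues a dissection can carry along, for TREM2 and TYROBP signalling genes of microglia, and for rod phototransduction genes. Vehicle-treated mouse 2 reached 9943 CPM of lens genes and 1558 CPM of muscle genes, and TD139-treated mouse 1, at 54.0 CPM of the TREM2 list, lay between the vehicle-treated mice and TD139-treated mice 2 and 3.

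Of 15196 genes tested, TD139 went with a higher level of 2617 (17.2%) and a lower level of 2455 (16.2%). Scaling by library size alone, in place of TMM, gave 1942 higher and 3040 lower genes, with the median fold change of all genes at −0.10 in place of −0.02 on the log2 scale. These calls followed the length of the transcript. With genes in 10 equal bins by length, in the shortest bin, up to 1257 bases, 41.2% were lower and 1.66% higher, with a median log2 fold change of −0.46. In the longest bin, from 6697 bases, 53.7% were higher and 2.59% lower, with a median of 0.47. Across 15068 genes of known length the Spearman correlation of length with fold change was 0.50, as a description over genes that are not independent. It was 0.39 for coding length, 0.40 for untranslated length, 0.23 for the number of exons and 0.35 for the span of the gene, and −0.37 for GC content. With the genes split into 3 equal groups by mean count it was 0.26, 0.57 and 0.66 from the lowest to the highest counts.

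The trend could be measured in each library. The median of the longest bin minus that of the shortest, relative to the mean of all mice, was 0.35, 0.70 and 0.66 in the TD139-treated mice and −0.18, −0.49 and −0.44 in the vehicle-treated mice. The light-exposed groups did not overlap in this measure. The naive mice, which received neither light nor injection, lay at −0.61, −0.21 and 0.17. Reads outside annotated genes moved with it, at 16.5 to 19.4% of reads with vehicle and 21.3 to 22.8% with TD139. What sets the trend was not tested, and with 1 treatment per library it cannot be told apart from the treatment.

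**Figure D2:**
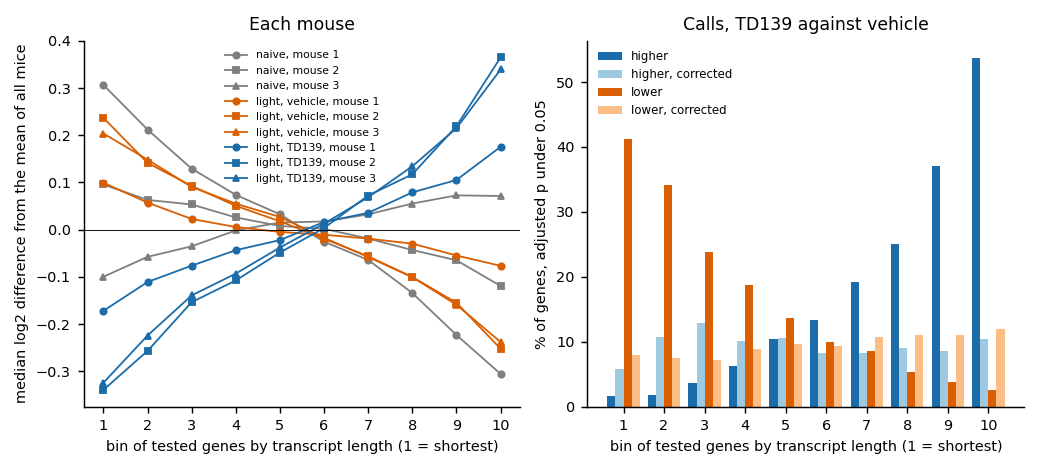
Left, median log2 difference of each mouse from the mean of all mice in 10 bins of tested genes by transcript length. Right, the percentage of genes of each bin that were higher or lower with TD139, before and after correction. Lower genes went from 41.2% in the shortest bin to 2.59% in the longest without correction, and ranged from 7.23 to 11.9% after it.

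With length and GC content allowed for, 1424 of 15068 genes (9.45%) were higher and 1435 (9.52%) lower. The median fold change of every bin then lay between −0.03 and 0.07. In both fits and with the same sign, 924 genes (6.13%) were higher and 981 (6.51%) lower, which were 35.3% of the genes higher and 40.0% of those lower without correction. Another 9 genes passed in both fits with opposite signs. The most abundant of these were Ssr1, of the pore that takes proteins into the endoplasmic reticulum, with a log2 fold change of 0.33 and −0.26 after correction, and Pmm1, a phosphomannomutase, with −0.30 and 0.24. Vehicle-treated and TD139-treated mice did not overlap for 3953 genes (26.0%) higher and 3866 genes (25.4%) lower with TD139, and for 898 and 963 of the genes called in both fits. The lower genes changed more. At a log2 fold change of at least 1 in both fits there were 115 higher and 411 lower genes, and at 2 there were 6 and 149. The corrected calls rested on TD139-treated mice 2 and 3. Without mouse 2, 4 genes were higher and 5 lower after correction, and without mouse 3, 0 and 0 in edgeR, with 3754 and 3841 genes at an unadjusted p under 0.05. Without TD139-treated mouse 1 the corrected numbers rose to 2257 and 2201. Without vehicle-treated mouse 1 they were 788 and 967, without vehicle-treated mouse 3 270 and 364, and with vehicle-treated mouse 2 and TD139-treated mouse 1 both left out 2183 and 2132. Without correction the lowest numbers were 867 higher and 759 lower genes, without TD139-treated mouse 2. Of the genes called in both fits, 441 higher and 443 lower ones passed without correction whichever of the 9 mice was left out. For each gene list, the range of its counts before and after the correction with 1 of the 6 light-exposed mice left out stands beside the count.

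Galectin-3 itself was among the lower genes. Lgals3 (ENSMUSG00000050335.17, chromosome 14, 47367751 to 47386160 on the plus strand of GRCm38) stood at 36.1, 38.0 and 67.2 CPM in the vehicle-treated mice, at 10.6, 3.90 and 2.77 in the TD139-treated mice and at 10.1, 7.27 and 5.61 in the naive mice. Every TD139-treated mouse lay below every vehicle-treated mouse, and mouse 1 was the highest of its group. The log2 fold change was −3.03 (SE 0.53, adjusted p = 0.00727 by edgeR), and −2.60 (SE 0.46, adjusted p = 0.014 by edgeR) after the correction. Lgals1, for galectin-1, was at 54.7, 51.5 and 70.2 CPM with vehicle and 21.4, 9.74 and 8.73 with TD139, a log2 fold change of −2.15 (SE 0.33, adjusted p = 0.00568 by edgeR). Lgals9, for galectin-9, was at 6.58 to 20.1 CPM with vehicle and 2.05 to 5.0 with TD139 (log2 fold change −1.84, corrected −1.497). Lgals3bp, whose secreted product binds galectins, was at 27.0 to 77.8 CPM with vehicle and 7.52 to 18.7 with TD139 (log2 fold change −2.07, corrected −1.79). The other galectins measured were not lower. Lgals8 was at 41.0 to 43.9 CPM with vehicle and 44.7 to 56.7 with TD139 (log2 fold change 0.26 with adjusted p = 0.0846, corrected 0.22 with adjusted p = 0.121), Lgals4 at 3.14 to 3.36 CPM with vehicle and 3.95 to 4.63 with TD139 (log2 fold change 0.41 with adjusted p = 0.117, corrected 0.86) and Lgals12 at 0.84 to 2.65 CPM with vehicle and 1.70 to 2.52 with TD139 (log2 fold change 0.13 with adjusted p = 0.829, corrected 0.15 with adjusted p = 0.816). Lgalsl, which encodes a galectin-related protein without the sugar-binding function, was called higher without the correction, at 205 to 237 CPM with vehicle and 258 to 385 with TD139 (log2 fold change 0.54, corrected 0.29 with adjusted p = 0.0784), and Lgals4 after it alone. Of the surface proteins that galectin-3 is known to bind, Cd44, a hyaluronan receptor, was at 49.8 to 132 CPM with vehicle and 25.2 to 37.9 with TD139 (log2 fold change −1.54, corrected −1.92). Itgb1, the beta-1 integrin, was at 59.9 to 76.6 CPM with vehicle and 48.5 to 53.4 with TD139 (log2 fold change −0.42, corrected −0.64). Among galectins and these partners together, 9 of 14 were lower, 8 after the correction and 8 in both fits (2 to 9 and 0 to 9 with 1 mouse out, median log2 fold change −1.27, corrected −1.44), and 1 was higher, 1 after the correction and 0 in both. For galectins and galectin-3 partners, without TD139-treated mouse 1, 2 were higher and 3 after the correction. Lgals9, Lgals3bp, Lgalsl, Cd44 and Itgb1 lost their calls without TD139-treated mouse 2 or 3, and Lgalsl without vehicle-treated mouse 3 (uncorrected adjusted p up to 0.0648 in edgeR). For Lgals9 the uncorrected log2 fold change was −1.18 without vehicle-treated mouse 3.

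Of the enzymes that build the branched N-glycans to which galectin-3 binds, 2 of 12 were higher, 3 after the correction and 2 in both fits (2 to 4 and 0 to 4 with 1 mouse out, median log2 fold change 0.05, corrected −0.02), and 1 was lower, 2 after the correction and 1 in both. Over all genes tested 17.2% were higher and 16.2% lower, 9.45 and 9.52% after the correction and 6.13 and 6.51% in both fits. Mgat5, which adds the branch most favoured by galectins, was at 12.1, 9.18 and 9.54 CPM in vehicle-treated and 24.7, 27.0 and 32.1 in TD139-treated mice, with a log2 fold change of 1.44 (SE 0.31, adjusted p = 0.01 by edgeR) and 1.02 (SE 0.24, adjusted p = 0.0204 by edgeR) after correction. All TD139-treated mice lay above all vehicle-treated mice, and the naive mice were at 5.96, 12.9 and 17.2. Man2a2, a Golgi mannosidase that opens the way to branching, was at 554 to 637 CPM with vehicle and 831 to 1048 with TD139 (log2 fold change 0.69, corrected 0.49). Mgat4b, which adds another branch, went the other way at 40.0 to 45.7 CPM with vehicle and 24 to 29.5 with TD139 (log2 fold change −0.61, corrected −0.31). For N-glycan branching, without TD139-treated mouse 1, 4 were higher and 4 after the correction.

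The 12 lowest fold changes, among genes called in both fits with at least 50 counts per light-exposed mouse on average and no overlap of the groups, began with Cox6a2, a muscle isoform of a cytochrome oxidase subunit. It had 30, 663 and 17 counts in the vehicle-treated mice, the highest being the mouse with muscle RNA. With all TD139-treated mice at or under 3 counts, its expression was at least 75.0-fold lower, and at least 7.38-fold lower with vehicle-treated mouse 2 left out. Without that mouse it averaged 10 counts, under the minimum of 50 by which these genes were chosen, so that its place depends on that mouse. The adjusted p of Cox6a2 was 0.0238 in edgeR and 0.0695, 0.0912 and 0.0865 without TD139-treated mouse 1, 2 or 3, and its fitted log2 fold change without vehicle-treated mouse 2 was −4.31. Lcn2, for the iron-carrier lipocalin 2, was at 182, 214 and 447 CPM with vehicle and 23.6, 2.64 and 2.33 with TD139. Nupr1, a stress-induced chromatin protein, was at 59.7, 95.8 and 108 and 5.89, 1.74 and 2.25 CPM. Mice 2 and 3 of the TD139 group had less of both transcripts than the naive mice, at 5.19, 4.11 and 5.86 CPM of Lcn2 and 5.61, 5.05 and 4.44 of Nupr1, and mouse 1 had more. Their log2 fold changes were −4.88 (SE 1.02, adjusted p = 0.0153 by edgeR) and −4.74 (SE 0.46, adjusted p = 0.005 by edgeR). Timp1, an inhibitor of matrix metalloproteases, was at 12 to 37.7 CPM with vehicle and 0.277 to 1.52 with TD139 (log2 fold change −4.86, corrected −4.39). Fosl1, an AP-1 transcription factor, was at 1.2 to 6.12 CPM with vehicle and 0.139 to 0.185 with TD139 (log2 fold change −4.39, corrected −3.97). Among myeloid surface proteins, the scavenger receptor Msr1 was at 2.97 to 11.4 CPM with vehicle and 0.079 to 1.08 with TD139 (log2 fold change −3.96, corrected −4.33), the tetraspanning Ms4a6d at 2.15 to 6.85 CPM with vehicle and 0.0348 to 0.853 with TD139 (log2 fold change −3.72, corrected −3.55) and the inhibitory receptor Lilrb4 at 1.52 to 5.34 CPM with vehicle and 0.0348 to 0.816 with TD139 (log2 fold change −3.42, corrected −3.24). Capg, an actin-capping protein of macrophages, was at 11.3 to 17.1 CPM with vehicle and 0.591 to 2.26 with TD139 (log2 fold change −3.51, corrected −3.04). S100a6, a calcium-binding protein of reactive glia, was at 38.2 to 90.2 CPM with vehicle and 2.16 to 10.3 with TD139 (log2 fold change −3.67, corrected −3.16). The acute-phase serpins Serpina3n, at 132 to 432 CPM with vehicle and 6.84 to 35.9 with TD139 (log2 fold change −3.80, corrected −3.57), and Serpina3m, at 3.21 to 10.6 CPM with vehicle and 0.0395 to 0.89 with TD139 (log2 fold change −3.95, corrected −3.72), belong to a family of near-identical copies, so reads may be split among them. Lcn2, Msr1, Lilrb4, Serpina3n and Serpina3m lost their calls without TD139-treated mouse 2, Lcn2, Ms4a6d, Lilrb4 and Serpina3n without TD139-treated mouse 3, and Lilrb4 without vehicle-treated mouse 3 (uncorrected adjusted p up to 0.0833 in edgeR). For Ms4a6d and Lilrb4 the uncorrected log2 fold change was −5.82 and −6.28 without TD139-treated mouse 1.

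The 12 highest fold changes chosen by the same rule were smaller. The genes reported of these have long transcripts, of 4430 to 15981 bases. Lcor, for a nuclear receptor corepressor, led them with 0.894, 0.954 and 0.806 CPM in vehicle-treated and 4.19, 8.45 and 7.55 in TD139-treated mice. The log2 fold change was 2.92 (SE 0.57, adjusted p = 0.00709 by edgeR), and 2.50 (SE 0.51, adjusted p = 0.0146 by edgeR) after the correction, while the naive mice ranged from 0.845 to 4.80 CPM. Rora, a nuclear receptor of the clock and of photoreceptor development, was at 3.96 to 7.08 CPM with vehicle and 11.6 to 28.0 with TD139 (log2 fold change 2.06, corrected 1.29). Cbl, a ubiquitin ligase that turns off receptor tyrosine kinases, was at 2.69 to 4.75 CPM with vehicle and 9.16 to 16.8 with TD139 (log2 fold change 2.07, corrected 1.47). Xylt1, which starts the sugar chains of proteoglycans, was at 2.82 to 5.43 CPM with vehicle and 9.64 to 22.2 with TD139 (log2 fold change 1.98, corrected 1.53). Syt14, a synaptotagmin, was at 0.706 to 1.14 CPM with vehicle and 2.11 to 4.73 with TD139 (log2 fold change 2.09, corrected 1.41). Pcdhgb8, at 0.941 to 1.61 CPM with vehicle and 3.52 to 6.68 with TD139 (log2 fold change 2.06, corrected 1.94), shares exons with the other gamma protocadherins, and Zbed6, at 4.98 to 9.33 CPM with vehicle and 20.2 to 41.5 with TD139 (log2 fold change 2.36, corrected 1.95), lies within another gene, so both are uncertain. Zfp804b, at 0.812 to 1.86 CPM with vehicle and 4.41 to 7.43 with TD139 (log2 fold change 2.05, corrected 1.74), N4bp2, at 5.88 to 7.94 CPM with vehicle and 16.6 to 34.6 with TD139 (log2 fold change 1.98, corrected 1.33), Nbeal1, at 3.90 to 9.40 CPM with vehicle and 17.4 to 30.6 with TD139 (log2 fold change 1.96, corrected 0.98), and Tmem245, at 1.75 to 3.11 CPM with vehicle and 6.6 to 10.9 with TD139 (log2 fold change 1.86, corrected 1.09), complete those reported. The correction made the fold change smaller in each of these genes. Rora, Cbl, Xylt1, Zbed6 and N4bp2 lost their calls without TD139-treated mouse 2 or vehicle-treated mouse 3, Rora, Cbl, Xylt1, Zbed6 and Zfp804b without TD139-treated mouse 3, and Cbl and Zbed6 without vehicle-treated mouse 2 (uncorrected adjusted p up to 0.081 in edgeR).

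**Figure D3:**
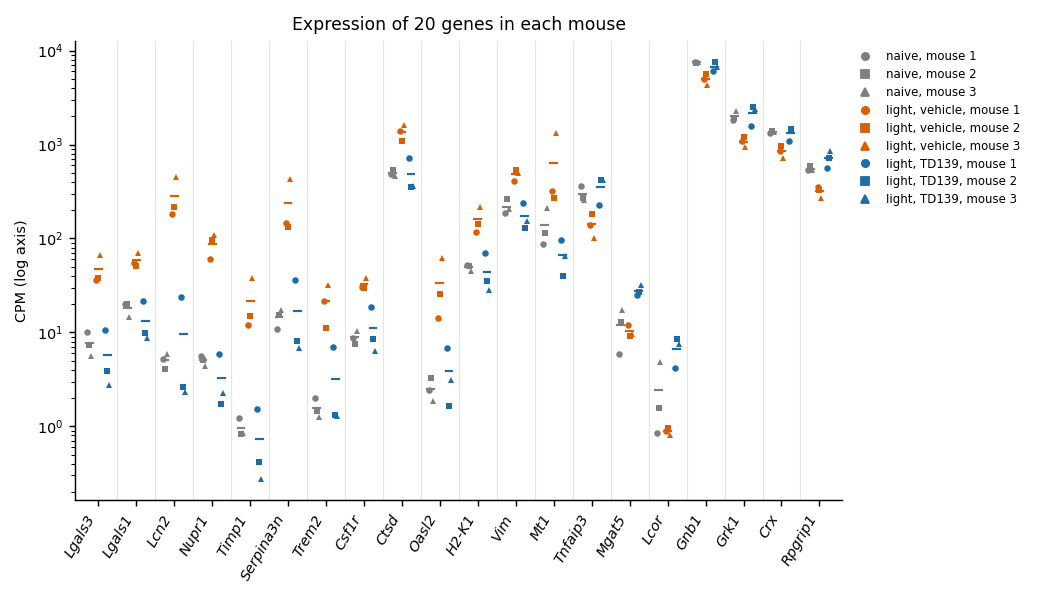
CPM of 20 genes in each mouse on a log axis, with a bar at the mean of each group of 3. For Lgals3 the TD139-treated mice lie between 2.77 and 10.6 CPM and the vehicle-treated mice between 36.1 and 67.2, and TD139-treated mouse 1 (circle) is the highest of its group for most of the lower genes.

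Of the genes that mark disease-associated microglia, the lipid-handling and phagocytic state seen around damaged neurons, 18 of 24 were lower, 16 after the correction and 15 in both fits (9 to 23 and 0 to 23 with 1 mouse out, median log2 fold change −1.73, corrected −1.91). Across all genes 16.2% were lower, 9.52% after the correction and 6.51% in both. For 23 of the 24 listed genes the TD139-treated mice all lay below the vehicle-treated ones, as for 25.4% of all genes. Relative to the mean of the vehicle-treated mice, the median of the list was −1.03, −1.92 and −1.99 log2 units in the TD139-treated and −1.59, −1.42 and −1.62 in the naive mice. Ctsd, for the lysosomal protease cathepsin D, was at 1397, 1091 and 1615 CPM with vehicle and 719, 357 and 365 with TD139, against 488, 534 and 460.1 in naive mice. The log2 fold change of Ctsd was −1.51 (SE 0.27, adjusted p = 0.00631 by edgeR). Ctsb, for cathepsin B, was at 725 to 948 CPM with vehicle and 406 to 576 with TD139 (log2 fold change −0.86, corrected −1.07). Apoe, the lipid carrier of microglia and glia, was at 1795 to 2073 CPM with vehicle and 502 to 1278 with TD139 (log2 fold change −1.32, corrected −0.84 with adjusted p = 0.0749). Fth1, the ferritin heavy chain, was at 1081 to 1243 CPM with vehicle and 595 to 746 with TD139 (log2 fold change −0.83, corrected −0.42). Without TD139-treated mouse 1, 23 of the 24 genes were lower in either fit, and without vehicle-treated mouse 2, 15 in either fit. Apoe lost its call without TD139-treated mouse 2 or 3 or vehicle-treated mouse 3 (uncorrected adjusted p up to 0.0813 in edgeR).

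Genes of resting microglia were lower in part, since of these 9 of 18 were lower, 8 after the correction and 8 in both fits (4 to 11 and 0 to 11 with 1 mouse out, median log2 fold change −1.23, corrected −1.09), and 1 was higher, 1 after the correction and 0 in both. The shares over all genes were 16.2% lower, 9.52% after the correction and 6.51% in both. Cx3cr1, the fractalkine receptor, was at 11 to 13 CPM with vehicle and 1.98 to 7.82 with TD139 (log2 fold change −1.52, corrected −1.67). Tmem119 was at 3.54 to 4.64 CPM with vehicle and 1.39 to 2.17 with TD139 (log2 fold change −1.26, corrected −0.92). P2ry12, the ADP receptor that guides processes to injury, was at 1.88 to 3.22 CPM with vehicle and 1.26 to 3.26 with TD139 (log2 fold change −0.29 with adjusted p = 0.587, corrected −0.43 with adjusted p = 0.448). Cx3cr1 and Tmem119 were at 2.13 to 3.38 and 1.47 to 1.88 CPM in naive mice. Sparc, which matrix-making cells also express, was at 350.1 to 602 CPM with vehicle and 119.6 to 252 with TD139 (log2 fold change −1.24, corrected −1.03). Mef2c, a transcription factor that neurons use too, was called higher without the correction, at 23.7 to 40.4 CPM with vehicle and 55.6 to 94.6 with TD139 (log2 fold change 1.07, corrected 0.50 with adjusted p = 0.152). Bin1, which shapes membranes and which neurons also express, was called higher after it, at 415 to 458 CPM with vehicle and 418 to 485 with TD139 (log2 fold change 0.04 with adjusted p = 0.793, corrected 0.35). In whole retinas, fewer cells of a type and less RNA per cell cannot be told apart. For homeostatic microglia, without vehicle-treated mouse 2, 8 were lower and 5 after the correction. Cx3cr1 and Sparc lost their calls without TD139-treated mouse 3, and Cx3cr1 without TD139-treated mouse 2 or vehicle-treated mouse 3 (uncorrected adjusted p up to 0.0999 in edgeR). For Cx3cr1 the uncorrected log2 fold change was −2.32 without TD139-treated mouse 1.

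In the TREM2 pathway, in which a lipid receptor signals through TYROBP and the kinase SYK, 9 of 15 were lower, 7 after the correction and 7 in both fits (2 to 12 and 0 to 12 with 1 mouse out, median log2 fold change −1.83, corrected −1.73). Beside this list and the next, 16.2% of all genes were lower, 9.52% after the correction and 6.51% in both. Trem2 was at 21.8, 11.1 and 31.8 CPM with vehicle and 6.93, 1.32 and 1.30 with TD139, against 2.00, 1.47 and 1.25 in naive mice. Its log2 fold change was −2.76 (SE 0.70, adjusted p = 0.0212 by edgeR). TD139-treated mouse 1 lay between the groups, and mice 2 and 3 at the level of the naive mice. Laptm5, a lysosomal protein of leukocytes, was at 18.9 to 30.2 CPM with vehicle and 2.69 to 12.6 with TD139 (log2 fold change −2.03, corrected −1.82). Lyn, a SRC-family kinase, was at 3.40 to 6.15 CPM with vehicle and 0.591 to 1.67 with TD139 (log2 fold change −1.92, corrected −2.05). Among transcription factors and growth factor receptors of myeloid cells, 8 of 13 were lower, 7 after the correction and 7 in both fits (4 to 9 and 0 to 9 with 1 mouse out, median log2 fold change −1.79, corrected −1.61). Csf1r, the receptor on which microglia depend, was at 29.9 to 38.0 CPM with vehicle and 6.36 to 18.6 with TD139 (log2 fold change −1.56, corrected −1.64). The transcription factors Cebpa and Irf8 were at 6.89 to 11.6 CPM with vehicle and 1.04 to 3.82 with TD139 (log2 fold change −2.27, corrected −2.03) and 5.51 to 13.1 CPM with vehicle and 1.32 to 4.15 with TD139 (log2 fold change −1.79, corrected −1.61), respectively. For the TREM2 pathway, without vehicle-treated mouse 2, 8 were lower and 4 after the correction. For the TREM2 pathway, without TD139-treated mouse 1, 12 were lower and 12 after the correction, with a median of −2.56 and −2.65 corrected. Trem2, Laptm5, Csf1r and Irf8 lost their calls without TD139-treated mouse 2, and Trem2, Laptm5 and Irf8 without TD139-treated mouse 3 or vehicle-treated mouse 3 (uncorrected adjusted p up to 0.0832 in edgeR). For Laptm5 the uncorrected log2 fold change was −3.09 without TD139-treated mouse 1.

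Of the activating components and receptors of complement 6 of 13 were lower, 4 after the correction and 4 in both fits (1 to 12 and 0 to 12 with 1 mouse out, median log2 fold change −2.48, corrected −2.29), where of all genes 16.2% were lower, 9.52% after the correction and 6.51% in both. C1qb, a chain of the C1q recognition molecule, was at 55.8, 36.6 and 89.9 CPM with vehicle and 20.8, 2.92 and 2.96 with TD139, with a log2 fold change of −2.77 (SE 0.83, adjusted p = 0.044 by edgeR) and, after correction, −2.29 (SE 0.78, adjusted p = 0.0859 by edgeR). C1qc was at 41.5 to 94.1 CPM with vehicle and 2.85 to 20.5 with TD139 (log2 fold change −2.83, corrected −2.35 with adjusted p = 0.073). C1s, the protease of the C1 complex, was at 1.97 to 6.18 CPM with vehicle and 0.869 to 1.78 with TD139 (log2 fold change −1.67, corrected −1.70). Itgam, a chain of complement receptor 3, was at 2.72 to 4.70 CPM with vehicle and 0.474 to 1.63 with TD139 (log2 fold change −1.77, corrected −1.99). Of the regulators, 4 of 9 were lower, 4 after the correction and 3 in both fits (2 to 4 and 0 to 4 with 1 mouse out, median log2 fold change −0.32, corrected −0.12), and 0 were higher, 2 after the correction and 0 in both, where of all genes 16.2% were lower, 9.52% after the correction and 6.51% in both. Clu, for clusterin, was at 2141, 2978 and 2794 CPM with vehicle and 1246, 582 and 588 with TD139. Its log2 fold change was −1.71 (SE 0.30, adjusted p = 0.00651 by edgeR), with naive mice at 834, 1158 and 948 CPM. Serping1, the C1 inhibitor, was at 61.2 to 103 CPM with vehicle and 3.48 to 23.2 with TD139 (log2 fold change −2.99, corrected −2.70). Cfi, complement factor I, was at 5.43 to 8.03 CPM with vehicle and 1.03 to 2.30 with TD139 (log2 fold change −2.12, corrected −1.98). For complement activation, without vehicle-treated mouse 2, 4 were lower and 2 after the correction. For complement regulators, also without that mouse, 2 were lower and 2 after the correction. For complement activation, without TD139-treated mouse 1, 12 were lower and 12 after the correction, with a median of −3.68 and −3.59 corrected. The corrected median of complement regulators ranged from −0.43 without TD139-treated mouse 1 to 0.03 without TD139-treated mouse 3. C1qb, C1qc, C1s, Itgam and Serping1 lost their calls without TD139-treated mouse 2 or 3, C1qb, C1s and Serping1 without vehicle-treated mouse 2, C1qb, C1qc and Serping1 without vehicle-treated mouse 3, and C1qb and C1qc without vehicle-treated mouse 1 or naive mouse 1, 2 or 3 (uncorrected adjusted p up to 0.115 in edgeR). For C1qb the uncorrected log2 fold change was −4.37 without TD139-treated mouse 1.

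Of chemokines and their receptors 5 of 12 were lower, 4 after the correction and 3 in both fits (1 to 8 and 0 to 6 with 1 mouse out, median log2 fold change −1.44, corrected −1.44), where of all genes 16.2% were lower, 9.52% after the correction and 6.51% in both, and 8 of the 20 listed had too few counts to be tested. Ccl2, which draws CCR2-bearing monocytes, had 39, 45 and 81 counts in the vehicle-treated mice and 0, 0 and 1 in the TD139-treated mice, at least 17.1-fold lower against the floor of 3 counts per library. Its adjusted p was 0.005 in edgeR. Cxcl1, which draws neutrophils, was at 1.39 to 2.08 CPM with vehicle and 0 to 0.297 with TD139 (log2 fold change −3.74, corrected −3.45). Cxcl16, a chemokine that is also a scavenger receptor, was at 44.0 to 53.3 CPM with vehicle and 14.7 to 37.8 with TD139 (log2 fold change −1.13, corrected −1.07 with adjusted p = 0.0645). Of cytokines and their receptors 9 of 12 were lower, 7 after the correction and 7 in both fits (4 to 10 and 0 to 9 with 1 mouse out, median log2 fold change −1.56, corrected −1.46). Tnfrsf1a, the main receptor of tumour necrosis factor, was at 38.5 to 78.5 CPM with vehicle and 6.33 to 17.5 with TD139 (log2 fold change −2.33, corrected −2.01). Osmr, the oncostatin M receptor, was at 23.3 to 64.6 CPM with vehicle and 4.86 to 15.2 with TD139 (log2 fold change −2.19, corrected −2.51). Csf1, a growth factor of microglia, was at 17.7 to 27.3 CPM with vehicle and 5.77 to 11.9 with TD139 (log2 fold change −1.43, corrected −1.45). Il33, an alarmin that Mueller glia release, was at 77.5 to 108 CPM with vehicle and 43.5 to 69.4 with TD139 (log2 fold change −0.75, corrected −0.82 with adjusted p = 0.056). For chemokines and chemokine receptors, without vehicle-treated mouse 2, 2 were lower and 2 after the correction. For chemokines and chemokine receptors, without TD139-treated mouse 1, 8 were lower and 6 after the correction. Chemokines and chemokine receptors had a corrected median of −0.92 without TD139-treated mouse 2. Cxcl1, Cxcl16, Osmr and Il33 lost their calls without TD139-treated mouse 3, Cxcl16, Osmr and Il33 without TD139-treated mouse 2 or vehicle-treated mouse 3, Cxcl16 and Osmr without naive mouse 2, Cxcl16 and Il33 without naive mouse 3, and Cxcl16 without vehicle-treated mouse 1 or 2 or naive mouse 1 (uncorrected adjusted p up to 0.136 in edgeR). For Cxcl16 the uncorrected log2 fold change was −1.70 without TD139-treated mouse 1.

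Of interferon-stimulated genes, which guard cells against viruses, 17 of 20 were lower, 14 after the correction and 14 in both fits (2 to 18 and 0 to 17 with 1 mouse out, median log2 fold change −1.90, corrected −1.95). Across all genes 16.2% were lower, 9.52% after the correction and 6.51% in both. The interferon list varied within the vehicle group, with medians of −0.82, −0.16 and 0.91 log2 units for mice 1, 2 and 3 relative to their mean. Oasl2, an antiviral oligoadenylate synthetase-like protein, was at 14.3, 25.9 and 61.5 CPM with vehicle and 6.86, 1.64 and 3.12 with TD139, against 2.42, 3.28 and 1.87 in naive mice. Vehicle-treated mouse 3 was the highest and TD139-treated mouse 1 the highest of its group, and the groups did not overlap. The log2 fold change of Oasl2 was −3.13 (SE 0.68, adjusted p = 0.014 by edgeR). Ifitm3, which blocks viral entry, was at 24.9 to 72.0 CPM with vehicle and 3.10 to 13 with TD139 (log2 fold change −2.82, corrected −2.39). Irf7, which amplifies the interferon response, was at 16.1 to 61.3 CPM with vehicle and 12.1 to 14.5 with TD139 (log2 fold change −1.39, corrected −1.07 with adjusted p = 0.115). Interferon-stimulated genes had a corrected median of −1.21 without vehicle-treated mouse 3. Oasl2, Ifitm3 and Irf7 lost their calls without TD139-treated mouse 2 or 3, Ifitm3 and Irf7 without vehicle-treated mouse 3, and Irf7 without TD139-treated mouse 1 or naive mouse 1, 2 or 3 (uncorrected adjusted p up to 0.136 in edgeR). For Irf7 the uncorrected log2 fold change was −0.66 without vehicle-treated mouse 3.

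The interferon-stimulated response element, bound by STAT and IRF factors, was searched in promoters as GAAA followed, after any 2 bases, by GAAA on both strands, with overlapping matches counted. In the RefSeq promoter table for GRCm38.p6, which gives 250 bases before and 50 after the start of a gene, 15 of the interferon-stimulated genes were found and 9 held a match. Of all 11757 tested genes with a promoter there, 2.73% did. Shown here are promoters of 3 of those genes and of Lgals9, chosen after their values were seen from genes with at least 2 matches. Other genes with 2 matches, such as Ifit3, Ifitm3 and Oas1a, are not shown, and the promoter of Oasl2 held no match. The capitals mark the matches, and all are written 5′ to 3′ on the strand of the gene.
Isg15, chr4:156200769-156200968, minus strand: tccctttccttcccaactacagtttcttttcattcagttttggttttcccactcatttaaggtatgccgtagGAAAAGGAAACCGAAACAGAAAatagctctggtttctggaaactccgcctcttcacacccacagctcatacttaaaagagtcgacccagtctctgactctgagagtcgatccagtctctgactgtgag
Ifit1, chr19:34640739-34640938, plus strand: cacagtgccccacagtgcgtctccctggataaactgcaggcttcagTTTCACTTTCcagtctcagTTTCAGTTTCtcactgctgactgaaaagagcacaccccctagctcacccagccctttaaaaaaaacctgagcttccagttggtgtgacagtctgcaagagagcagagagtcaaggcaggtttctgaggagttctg
Bst2, chr8:71537423-71537622, minus strand: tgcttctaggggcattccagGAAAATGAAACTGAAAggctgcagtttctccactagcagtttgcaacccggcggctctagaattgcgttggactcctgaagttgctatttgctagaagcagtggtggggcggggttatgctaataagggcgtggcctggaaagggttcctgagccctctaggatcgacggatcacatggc
Lgals9, chr11:78984875-78985074, minus strand: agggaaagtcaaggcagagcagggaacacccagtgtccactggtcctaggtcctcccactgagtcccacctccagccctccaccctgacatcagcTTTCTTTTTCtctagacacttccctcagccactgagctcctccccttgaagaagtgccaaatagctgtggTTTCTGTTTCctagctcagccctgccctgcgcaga

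The 3 matches of Isg15 overlap each other, starting 78, 72 and 66 bases before the start of the gene, and those of Bst2 overlap at 130 and 124. In Ifit1 they are separate, at 104 and 85 bases before the start, and in Lgals9 at 55 before and 15 after it. Isg15, a ubiquitin-like protein, was at 1.82, 5.55 and 13 CPM with vehicle and 1.56, 0.557 and 0.83 with TD139, a log2 fold change of −2.79 (SE 0.68, adjusted p = 0.0149 by edgeR). Vehicle-treated mouse 1 and TD139-treated mouse 1, at 1.82 and 1.56 CPM, were close to each other. Ifit1, which binds foreign RNA caps, was at 2.57, 7.03 and 19.0 and 2.30, 0.626 and 0.909 CPM, a log2 fold change of −2.90 (SE 0.77, adjusted p = 0.0222 by edgeR). Bst2, the tether of budding viruses, was at 9.15, 14.6 and 31.8 and 4.86, 0.974 and 1.42 CPM, a log2 fold change of −2.93 (SE 0.72, adjusted p = 0.0188 by edgeR). A match describes the letters of the sequence and not binding. Isg15, Ifit1 and Bst2 lost their calls without TD139-treated mouse 2 or 3, and Ifit1 and Bst2 without vehicle-treated mouse 3 (uncorrected adjusted p up to 0.0938 in edgeR). For Ifit1 the uncorrected log2 fold change was −1.91 without vehicle-treated mouse 3.

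Of guanylate-binding proteins and related GTPases, which interferon gamma raises against intracellular microbes, 7 of 11 were lower, 5 after the correction and 5 in both fits (0 to 8 and 0 to 9 with 1 mouse out, median log2 fold change −1.69, corrected −1.84). Beside this list and the next ones, 16.2% of all genes were lower, 9.52% after the correction and 6.51% in both. Gbp3 was at 8.12 to 36.2 CPM with vehicle and 2.61 to 6.01 with TD139 (log2 fold change −2.29, corrected −2.29), Irgm1 at 10.5 to 35.2 CPM with vehicle and 3.04 to 7.23 with TD139 (log2 fold change −2.03, corrected −1.96) and Igtp at 6.94 to 21.3 CPM with vehicle and 1.90 to 4.37 with TD139 (log2 fold change −2.04, corrected −1.84). For antigen presentation on MHC class I, 12 of 12 were lower, 11 after the correction and 11 in both fits (8 to 12 and 0 to 12 with 1 mouse out, median log2 fold change −2.16, corrected −1.79), and the groups did not overlap for any of the 12, against 25.4% of all genes lower without overlap. H2-K1, a class I heavy chain, was at 118, 143 and 219 CPM with vehicle and 69.4, 35.4 and 28.5 with TD139, against 51.9, 51.4 and 44.8 in naive mice, and its log2 fold change was −1.85 (SE 0.35, adjusted p = 0.00888 by edgeR). H2-D1 was at 71.5 to 132 CPM with vehicle and 14.0 to 40.2 with TD139 (log2 fold change −1.99, corrected −1.66), and the peptide-loading chaperone Tapbp at 124 to 157 CPM with vehicle and 73.9 to 103 with TD139 (log2 fold change −0.78, corrected −0.58). Class I genes are close copies, so reads may be split among them. Of the 6 class II genes tested 3 of 6 were lower, 2 after the correction and 2 in both fits (2 to 6 and 0 to 5 with 1 mouse out, median log2 fold change −1.68, corrected −1.34), where Ctss, a protease that trims the class II chaperone, was at 27.3 to 36.5 CPM with vehicle and 6.99 to 14.8 with TD139 (log2 fold change −1.68, corrected −1.43) and H2-Ab1, a class II chain, at 15.6 to 20.6 CPM with vehicle and 6.32 to 11.1 with TD139 (log2 fold change −1.10, corrected −0.58). Of Fc receptors, which bind antibody, 6 of 7 were lower, 3 after the correction and 3 in both fits (0 to 7 and 0 to 7 with 1 mouse out, median log2 fold change −2.67, corrected −2.38). Fcgr1 was at 2.30 to 7.29 CPM with vehicle and 0.198 to 0.964 with TD139 (log2 fold change −2.97, corrected −2.84). Fcer1g, the shared signalling chain, was at 8.80 to 18.5 CPM with vehicle and 0.593 to 5.04 with TD139 (log2 fold change −2.67, corrected −2.28 with adjusted p = 0.0592). For MHC class II, without vehicle-treated mouse 2, the median was −1.09 and −0.71 corrected. For guanylate-binding proteins and immunity GTPases, without TD139-treated mouse 1, 8 were lower and 9 after the correction. For MHC class II, also without that mouse, 6 were lower and 5 after the correction, with a median of −3.09 and −2.69 corrected. For Fc receptors, also without that mouse, 7 were lower and 7 after the correction, with a median of −4.08 and −3.69 corrected. Guanylate-binding proteins and immunity GTPases had a median of −0.99 and a corrected median of −1.004 without vehicle-treated mouse 3. Gbp3, Irgm1, Igtp, H2-D1, Fcgr1 and Fcer1g lost their calls without TD139-treated mouse 2, Gbp3, Irgm1 and Fcer1g without TD139-treated mouse 3, and Fcer1g without vehicle-treated mouse 1 or 3 or naive mouse 1, 2 or 3 (uncorrected adjusted p up to 0.0965 in edgeR). For Gbp3 and Irgm1 the uncorrected log2 fold change was −1.42 and −1.23 without vehicle-treated mouse 3. For Fcer1g the uncorrected log2 fold change was −4.37 without TD139-treated mouse 1.

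Of Toll-like receptors and adaptors, which sense microbes and cell debris, 9 of 13 were lower, 8 after the correction and 7 in both fits (3 to 11 and 0 to 11 with 1 mouse out, median log2 fold change −1.34, corrected −1.39). Beside this list and the next ones, 16.2% of all genes were lower, 9.52% after the correction and 6.51% in both. The adaptors Ticam1 and Myd88 were at 6.79 to 8.94 CPM with vehicle and 3.69 to 4.49 with TD139 (log2 fold change −0.98, corrected −0.80) and 10.9 to 19.4 CPM with vehicle and 5.93 to 8.82 with TD139 (log2 fold change −0.96, corrected −0.63). Among NF-kappaB factors and targets, 7 of 13 were lower, 5 after the correction and 5 in both fits (2 to 8 and 0 to 7 with 1 mouse out, median log2 fold change −1.03, corrected −0.77), and 1 was higher, 1 after the correction and 1 in both. Vcam1, an adhesion molecule for leukocytes, was at 27.9 to 37.3 CPM with vehicle and 6.58 to 15.2 with TD139 (log2 fold change −1.71, corrected −1.88). Tnfaip3, for the deubiquitinase A20, which switches NF-kappaB off, was the member that was higher. It was at 138.6, 183 and 102 CPM with vehicle and 228, 422 and 417 with TD139, against 365, 266 and 254 in naive mice, with a log2 fold change of 1.33 (SE 0.28, adjusted p = 0.0107 by edgeR). Naive mice thus had more Tnfaip3 RNA than vehicle-treated mice. Of inflammasome and cell death genes 6 of 9 were lower, 3 after the correction and 2 in both fits (0 to 6 and 0 to 5 with 1 mouse out, median log2 fold change −0.60, corrected −0.65). The shares over all genes, given above, were 16.2%, 9.52% and 6.51%. Of receptors and bridging proteins by which phagocytes take up dying cells 7 of 12 were lower, 5 after the correction and 5 in both fits (2 to 7 and 0 to 7 with 1 mouse out, median log2 fold change −1.45, corrected −1.59). Axl, a receptor for such bridges, was at 27.8 to 46.6 CPM with vehicle and 10.8 to 25.2 with TD139 (log2 fold change −1.17, corrected −1.21). Stab1, a scavenger receptor, was at 12 to 23.4 CPM with vehicle and 3.62 to 8.38 with TD139 (log2 fold change −1.74, corrected −1.96). For inflammasome and cell death, without vehicle-treated mouse 2, 3 were lower and 3 after the correction. For inflammasome and cell death, without TD139-treated mouse 1, 6 were lower and 5 after the correction. Inflammasome and cell death had a corrected median of −0.41 without vehicle-treated mouse 3. Myd88, Tnfaip3 and Axl lost their calls without TD139-treated mouse 2, Myd88 and Axl without TD139-treated mouse 3, and Axl without vehicle-treated mouse 3 (uncorrected adjusted p up to 0.0798 in edgeR).

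Of lysosomal genes 17 of 20 were lower, 14 after the correction and 13 in both fits (14 to 18 and 0 to 15 with 1 mouse out, median log2 fold change −0.86, corrected −0.92). Across all genes 16.2% were lower, 9.52% after the correction and 6.51% in both. Ctsl, for cathepsin L, was at 299 to 651 CPM with vehicle and 130.2 to 191 with TD139 (log2 fold change −1.61, corrected −2.05). Psap, which yields the activators of sphingolipid breakdown, was at 1263 to 1330.1 CPM with vehicle and 804 to 1017 with TD139 (log2 fold change −0.53, corrected −0.33). Of genes of lipid handling and cholesterol efflux 7 of 14 were lower, 7 after the correction and 6 in both fits (4 to 8 and 0 to 9 with 1 mouse out, median log2 fold change −0.65, corrected −0.78), and 2 were higher, 0 after the correction and 0 in both. Npc2, which carries cholesterol out of lysosomes, was at 78.7 to 96.6 CPM with vehicle and 43.7 to 59.4 with TD139 (log2 fold change −0.86, corrected −0.85). Of the genes of cholesterol synthesis 4 of 18 were higher, 2 after the correction and 1 in both fits (2 to 3 and 0 to 3 with 1 mouse out, median log2 fold change 0.11, corrected 0.12), where of all genes 17.2% were higher, 9.45% after the correction and 6.13% in both. Lss, for lanosterol synthase, was at 19.3, 17.9 and 18.5 CPM with vehicle and 32.7, 34.5 and 32.5 with TD139, a log2 fold change of 0.84 (SE 0.13, adjusted p = 0.005 by edgeR), and 0.71 (SE 0.10, adjusted p = 0.00955 by edgeR) after correction. For iron handling, 8 of 12 were lower, 7 after the correction and 7 in both fits (4 to 8 and 0 to 6 with 1 mouse out, median log2 fold change −1.33, corrected −0.86). Cp, for the ferroxidase ceruloplasmin of Mueller glia, was at 686, 557 and 864 CPM with vehicle and 316, 133 and 130.4 with TD139, against 101, 157 and 173 in naive mice, with a log2 fold change of −1.86 (SE 0.39, adjusted p = 0.0118 by edgeR). Ftl1, the ferritin light chain, was at 433 to 628 CPM with vehicle and 174 to 285 with TD139 (log2 fold change −1.31, corrected −0.75). Trf, for transferrin, was at 286 to 427 CPM with vehicle and 69.9 to 157 with TD139 (log2 fold change −1.81, corrected −1.66). Cp and Trf lost their calls without TD139-treated mouse 2, and Trf without TD139-treated mouse 3 (uncorrected adjusted p up to 0.0723 in edgeR).

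Of the lists with more than 15 tested genes, the gliosis genes of reactive glia had the lowest median in both fits. Smaller lists reached lower medians, such as Fc receptors with 7 tested genes (−2.67, corrected −2.38). Complement activation, with 13 tested genes, was lower after the correction alone (−2.29). Of the gliosis genes 18 of 20 were lower, 17 after the correction and 17 in both fits (7 to 19 and 0 to 19 with 1 mouse out, median log2 fold change −2.54, corrected −2.13), and for 19 of 20 the TD139-treated mice all lay below the vehicle-treated ones, against 25.4% of all genes. Gfap, the intermediate filament of astrocytes and reactive Mueller glia, was at 160.0, 89.6 and 321 CPM with vehicle and 43.5, 11.8 and 18.1 with TD139, against 26.6, 44.7 and 41.9 in naive mice. Its log2 fold change was −2.96 (SE 0.67, adjusted p = 0.0182 by edgeR). Vim, another intermediate filament, was at 414 to 532 CPM with vehicle and 130.3 to 237 with TD139 (log2 fold change −1.47, corrected −1.20). Of the homeostatic genes of Mueller glia 5 of 14 were lower, 6 after the correction and 3 in both fits (2 to 7 and 0 to 9 with 1 mouse out, median log2 fold change −0.34, corrected −0.52), where of all genes 16.2% were lower, 9.52% after the correction and 6.51% in both, where Dkk3, a secreted Wnt modulator, was at 1264 to 1292 CPM with vehicle and 753 to 1130.1 with TD139 (log2 fold change −0.51, corrected −0.52). In the LIF and gp130 pathway, which photoreceptor injury engages in Mueller glia, 6 of 13 were lower, 5 after the correction and 5 in both fits (3 to 7 and 0 to 8 with 1 mouse out, median log2 fold change −1.09, corrected −1.32), and 1 was higher, 0 after the correction and 0 in both, where of all genes 16.2% were lower, 9.52% after the correction and 6.51% in both, and Stat3, its transcription factor, was at 129 to 247 CPM with vehicle and 73.0 to 96.6 with TD139 (log2 fold change −1.09, corrected −1.32). For the LIF and gp130 pathway, without TD139-treated mouse 1, 7 were lower and 8 after the correction. Gfap, Dkk3 and Stat3 lost their calls without TD139-treated mouse 2 or 3, and Dkk3 and Stat3 without vehicle-treated mouse 3 (uncorrected adjusted p up to 0.104 in edgeR).

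Among NRF2 targets and metallothioneins, which buffer oxidants and metals, 11 of 13 were lower, 8 after the correction and 7 in both fits (5 to 11 and 0 to 10 with 1 mouse out, median log2 fold change −1.04, corrected −0.58). Mt1 and Mt2 were at 317, 268 and 1328 and 192, 155 and 1103 CPM with vehicle and at 97.5, 39.9 and 64.3 and 49, 12.5 and 22.8 with TD139, with log2 fold changes of −3.25 (SE 0.80, adjusted p = 0.0241 by edgeR) and −4.11 (SE 1.15, adjusted p = 0.0374 by edgeR). Vehicle-treated mouse 3 was the highest for both, and neither passed after the correction (adjusted p = 0.057 and 0.0764). Prdx1, a peroxidase, was at 136 to 140.2 CPM with vehicle and 65.4 to 95.1 with TD139 (log2 fold change −0.81, corrected −0.84). In the stress response of ATF4 and Nupr1, 8 of 16 were lower, 7 after the correction and 7 in both fits (6 to 8 and 0 to 7 with 1 mouse out, median log2 fold change −0.60, corrected −0.23), and 1 was higher, 2 after the correction and 0 in both. Psat1, of serine synthesis, was at 87.9 to 108 CPM with vehicle and 50.9 to 67.0 with TD139 (log2 fold change −0.78, corrected −0.73). Atf5, a stress transcription factor, was at 99.0 to 151 CPM with vehicle and 48.6 to 59.4 with TD139 (log2 fold change −1.18, corrected −0.76). Of serpins and other protease inhibitors 9 of 13 were lower, 8 after the correction and 8 in both fits (5 to 12 and 0 to 9 with 1 mouse out, median log2 fold change −0.89, corrected −0.83), with A2m, the protease trap alpha-2-macroglobulin, at 44.2 to 71.3 CPM with vehicle and 7.31 to 17.4 with TD139 (log2 fold change −2.38, corrected −2.57) and Timp2 at 234 to 242 CPM with vehicle and 112 to 175 with TD139 (log2 fold change −0.83, corrected −0.83). Of matrix proteins 3 of 17 were lower, 4 after the correction and 3 in both fits (0 to 3 and 0 to 6 with 1 mouse out, median log2 fold change −0.24, corrected −0.58), against 16.2% lower over all genes and 9.52% after the correction. Of heat shock genes 3 of 12 were lower, 1 after the correction and 1 in both fits (0 to 2 and 0 to 1 with 1 mouse out, median log2 fold change 0.12, corrected 0.14), and 2 were higher, 2 after the correction and 1 in both, where of all genes 16.2% were lower, 9.52% after the correction and 6.51% in both, and Hsp90aa1, the inducible cytosolic HSP90, was at 489.9 to 564 CPM with vehicle and 672 to 985 with TD139 (log2 fold change 0.62, corrected 0.45). For matrix proteins, without vehicle-treated mouse 2, 2 were lower and 2 after the correction, with a median of 0.02 and −0.10 corrected. For the stress response of ATF4 and Nupr1, without TD139-treated mouse 1, 3 were higher and 6 after the correction. For serpins and protease inhibitors, also without that mouse, the median was −1.49 and −1.15 corrected. For matrix proteins, also without that mouse, the median was −0.85 and −0.99 corrected. For heat shock and chaperones, also without that mouse, 1 was lower and 1 after the correction. The stress response of ATF4 and Nupr1 had a corrected median of −0.13 without vehicle-treated mouse 1 and a corrected median of −0.10 without TD139-treated mouse 3. Matrix proteins had a median of −0.47 without vehicle-treated mouse 1, a median of −0.53 without vehicle-treated mouse 3, a median of −0.10 without TD139-treated mouse 2 and a corrected median of −0.33 without TD139-treated mouse 3. Mt1 and Mt2 lost their calls without TD139-treated mouse 2 or 3, and Mt2 without TD139-treated mouse 1, vehicle-treated mouse 3 or naive mouse 2 (uncorrected adjusted p up to 0.125 in edgeR). For Mt1 and Mt2 the uncorrected log2 fold change was −2.12 and −2.63 without vehicle-treated mouse 3.

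Of rod phototransduction genes, 11 of 19 were higher, 11 after the correction and 7 in both fits (6 to 13 and 0 to 14 with 1 mouse out, median log2 fold change 0.43, corrected 0.58). The shares over all genes were 17.2% higher, 9.45% after the correction and 6.13% in both. Relative to the vehicle-treated mice the median of the rod genes was 0.28, 0.68 and 0.42 log2 units in the TD139-treated and 0.74, 0.63 and 0.57 in the naive mice. Pde6b, a subunit of the rod phosphodiesterase, was at 2286, 2585 and 1739 CPM with vehicle, 2787, 3562 and 3208 with TD139 and 3631, 3401 and 3412 in naive mice. Its log2 fold change was 0.53 (SE 0.14, adjusted p = 0.0173 by edgeR), and the groups did not overlap. Gnb1, the beta subunit of rod transducin, was at 4263 to 5700.0 CPM with vehicle and 6033 to 7467 with TD139 (log2 fold change 0.43, corrected 0.38). Grk1, a kinase that ends the light response, was at 935 to 1209.7 CPM with vehicle and 1579 to 2527 with TD139 (log2 fold change 1.01, corrected 0.59). Of genes that shape the outer segment, where photoreceptors catch light, 8 of 13 were higher, 9 after the correction and 4 in both fits (4 to 9 and 0 to 11 with 1 mouse out, median log2 fold change 0.63, corrected 0.58). Rp1, a microtubule protein of the axoneme, was at 455 to 791 CPM with vehicle and 1075 to 2212 with TD139 (log2 fold change 1.36, corrected 0.70). Pde6b and Gnb1 lost their calls without TD139-treated mouse 2 or 3 or vehicle-treated mouse 3, and Gnb1 without vehicle-treated mouse 1 (uncorrected adjusted p up to 0.0963 in edgeR).

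Of the transcription factors that make and keep photoreceptors 10 of 13 were higher, 9 after the correction and 8 in both fits (7 to 10 and 0 to 9 with 1 mouse out, median log2 fold change 0.68, corrected 0.70). Crx, the homeobox factor of both rods and cones, was at 859, 969.7 and 726 CPM with vehicle, 1084, 1469 and 1387 with TD139 and 1333, 1391 and 1348 in naive mice, with a log2 fold change of 0.63 (SE 0.13, adjusted p = 0.00834 by edgeR). Nr2e3, which keeps rods from the cone fate, was at 575 to 619 CPM with vehicle and 733 to 926 with TD139 (log2 fold change 0.46, corrected 0.73). Esrrb, a nuclear receptor of rods, was at 254 to 336 CPM with vehicle and 382 to 525 with TD139 (log2 fold change 0.68, corrected 0.65). Samd11, a transcriptional repressor, was at 313 to 336 CPM with vehicle and 419 to 468 with TD139 (log2 fold change 0.49, corrected 0.75). Of cone phototransduction genes 3 of 13 were higher, 3 after the correction and 1 in both fits (1 to 4 and 0 to 4 with 1 mouse out, median log2 fold change 0.13, corrected 0.25), and 1 was lower, 0 after the correction and 0 in both, where of all genes 17.2% were higher, 9.45% after the correction and 6.13% in both. Visual cycle genes were split, as 4 of 12 were higher, 4 after the correction and 4 in both fits (0 to 4 and 0 to 4 with 1 mouse out, median log2 fold change −0.81, corrected −0.63), and 3 were lower, 2 after the correction and 1 in both, where of all genes 17.2% were higher, 9.45% after the correction and 6.13% in both. Those higher are made by photoreceptors, such as Rbp3, the retinoid carrier between cells, at 2735 to 3291 CPM with vehicle and 3717 to 4522 with TD139 (log2 fold change 0.48, corrected 0.37), and the retinol dehydrogenases Rdh12 and Rdh8, at 359 to 523 CPM with vehicle and 470.0 to 697 with TD139 (log2 fold change 0.54, corrected 0.83) and 44.5 to 61.5 CPM with vehicle and 82.3 to 134 with TD139 (log2 fold change 1.10, corrected 1.61). Most other members belong to the pigment epithelium, and 9 of 12 marker genes of that tissue were highest in vehicle-treated mouse 2. For the visual cycle, without vehicle-treated mouse 2, 1 was lower and 2 after the correction, with a median of −0.50 and −0.36 corrected. Cone phototransduction had a corrected median of 0.38 without vehicle-treated mouse 1. Rbp3, Rdh12 and Rdh8 lost their calls without TD139-treated mouse 2 or 3 or vehicle-treated mouse 3, and Rdh12 without vehicle-treated mouse 1 or naive mouse 2 (uncorrected adjusted p up to 0.159 in edgeR).

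CRX and OTX2 bind CTAATCC, which was searched in the same promoters on both strands. It was found in 3 of 13 rod genes with a promoter in the table and in 2.07% of all 11757 promoters. These 3 are shown, with the match in capitals, because they hold the letters.
Cngb1, chr8:95306596-95306695, minus strand: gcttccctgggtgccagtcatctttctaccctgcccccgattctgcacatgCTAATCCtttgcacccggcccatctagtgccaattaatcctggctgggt
Guca1a, chr17:47400617-47400716, minus strand: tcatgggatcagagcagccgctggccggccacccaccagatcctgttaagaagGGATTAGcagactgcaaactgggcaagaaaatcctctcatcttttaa
Gucy2f, chrX:142196947-142197046, minus strand: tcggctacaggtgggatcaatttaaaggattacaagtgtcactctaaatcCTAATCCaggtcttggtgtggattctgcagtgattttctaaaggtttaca

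The matches start 59, 57 and 60 bases before the start of the gene, in the same order. Cngb1, a subunit of the rod channel, was at 608 to 932 CPM with vehicle and 938 to 1268 with TD139 (log2 fold change 0.59, corrected 0.37 with adjusted p = 0.169). Guca1a, an activator of guanylate cyclase, was at 1293 to 1489 CPM with vehicle and 1194 to 1392 with TD139 (log2 fold change −0.08 with adjusted p = 0.624, corrected 0.49), so its sign turned with the correction. Gucy2f, a photoreceptor guanylate cyclase, was at 78.8 to 140.1 CPM with vehicle and 209.8 to 418 with TD139 (log2 fold change 1.40, corrected 0.76), and its transcript is 8122 bases long. Cngb1 lost its call without TD139-treated mouse 2 or 3 or vehicle-treated mouse 3 (uncorrected adjusted p up to 0.0843 in edgeR).

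Neurons of the inner retina relay the signal of photoreceptors, and the shares of all genes to set beside their counts are 17.2% higher and 16.2% lower, 9.45 and 9.52% after the correction. Of bipolar cell genes 7 of 16 were higher, 3 after the correction and 3 in both fits (1 to 8 and 0 to 4 with 1 mouse out, median log2 fold change 0.29, corrected 0.20), and 3 were lower, 0 after the correction and 0 in both. Of amacrine and horizontal cell genes 3 of 16 were lower, 2 after the correction and 0 in both fits (0 to 4 and 0 to 4 with 1 mouse out, median log2 fold change −0.04, corrected −0.09), and 1 was higher, 1 after the correction and 1 in both, and the member that was higher, the horizontal cell factor Onecut1, was low, at 0.235 to 0.572 CPM with vehicle and 0.79 to 2.23 with TD139 (log2 fold change 2.12, corrected 2.00). Of ganglion cell genes 3 of 14 were lower, 0 after the correction and 0 in both fits (0 to 5 and 0 to 1 with 1 mouse out, median log2 fold change −0.02, corrected 0.08), with 2 higher and 0 lower at an unadjusted p under 0.05 after correction in edgeR. Of synaptic adhesion and scaffold genes, with a median transcript of 7922 bases, 12 of 21 were higher, 2 after the correction and 2 in both fits (4 to 16 and 0 to 2 with 1 mouse out, median log2 fold change 0.44, corrected 0.08), and 0 were lower, 3 after the correction and 0 in both. Rims2, an active zone protein, was at 146 to 207 CPM with vehicle and 261 to 350.4 with TD139 (log2 fold change 0.82, corrected 0.59). Of voltage-gated channel genes, with a median of 10444.5 bases, 13 of 18 were higher, 0 after the correction and 0 in both fits (3 to 13 and 0 to 2 with 1 mouse out, median log2 fold change 0.66, corrected 0.07), and 3 were higher at an unadjusted p under 0.05 after correction. Cacna1f, the calcium channel of photoreceptor terminals, was at 387 to 451 CPM with vehicle and 543 to 694 with TD139 (log2 fold change 0.57, corrected 0.34 with adjusted p = 0.0718). For bipolar cells, without vehicle-treated mouse 2, 5 were higher and 1 after the correction. For ganglion cells, also without that mouse, 3 were lower and 1 after the correction. For synaptic adhesion and scaffold, also without that mouse, 7 were higher and 1 after the correction. For voltage-gated channels, also without that mouse, 7 were higher and 1 after the correction. For amacrine and horizontal cells, without TD139-treated mouse 1, 4 were lower and 4 after the correction. For ganglion cells, also without that mouse, 5 were lower and 0 after the correction. For voltage-gated channels, also without that mouse, 11 were higher and 2 after the correction. Onecut1 lost its call without TD139-treated mouse 2 (uncorrected adjusted p up to 0.0581 in edgeR).

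Lists of long and of short transcripts followed the trend with length without correction. Of chromatin regulators with long transcripts, with a median of 10515 bases, 18 of 19 were higher, 12 after the correction and 12 in both fits (12 to 18 and 0 to 13 with 1 mouse out, median log2 fold change 0.92, corrected 0.35). The shares over all genes were 17.2% higher, 9.45% after the correction and 6.13% in both. The histone methyltransferases Mll1 and Mll3 were at 199 to 241 CPM with vehicle and 358 to 576 with TD139 (log2 fold change 1.18, corrected 0.55) and 107 to 138 CPM with vehicle and 210.2 to 371 with TD139 (log2 fold change 1.32, corrected 0.64), the remodelling subunit Arid1a at 151 to 177 CPM with vehicle and 211 to 263 with TD139 (log2 fold change 0.53, corrected 0.26) and the remodeller Chd7 at 136 to 155 CPM with vehicle and 192 to 311 with TD139 (log2 fold change 0.88, corrected 0.40). Of zinc finger proteins 12 of 15 were higher, 3 after the correction and 3 in both fits (6 to 12 and 0 to 3 with 1 mouse out, median log2 fold change 0.68, corrected 0.20), where of all genes 17.2% were higher, 9.45% after the correction and 6.13% in both, with Zfp462 at 75.6 to 96.1 CPM with vehicle and 135 to 179 with TD139 (log2 fold change 0.95, corrected 0.41). Cilium and transition zone genes, which build the connecting cilium of photoreceptors, had shorter transcripts, with a median of 5027 bases, and of these 16 of 19 were higher, 8 after the correction and 8 in both fits (10 to 17 and 0 to 11 with 1 mouse out, median log2 fold change 0.57, corrected 0.36). Rpgrip1, which anchors a transition zone complex, was at 354, 330.1 and 269 CPM with vehicle, 569, 721 and 852 with TD139 and 534, 593 and 537 in naive mice, with a log2 fold change of 1.17 (SE 0.15, adjusted p = 0.005 by edgeR) and, after correction, 0.91 (SE 0.14, adjusted p = 0.00955 by edgeR). Bbs2 and Bbs4, of the complex that returns cargo from cilia, were at 113 to 145 CPM with vehicle and 146 to 183 with TD139 (log2 fold change 0.38, corrected 0.40) and 161 to 172 CPM with vehicle and 188 to 219 with TD139 (log2 fold change 0.28, corrected 0.32). For zinc finger proteins, without vehicle-treated mouse 2, 7 were higher and 1 after the correction. Zinc finger proteins had a corrected median of 0.12 without TD139-treated mouse 2. Arid1a, Bbs2 and Bbs4 lost their calls without TD139-treated mouse 2 or 3, Bbs2 and Bbs4 without vehicle-treated mouse 1 or 3, and Bbs4 without vehicle-treated mouse 2 (uncorrected adjusted p up to 0.126 in edgeR).

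Genes of the basal machinery have short transcripts and were lower in most cases without correction. Of cytosolic ribosomal proteins, with a median of 910.0 bases, 76 of 82 were lower, 34 after the correction and 34 in both fits (52 to 76 and 0 to 36 with 1 mouse out, median log2 fold change −0.66, corrected −0.24). Across all genes the shares were 16.2% lower, 9.52% after the correction and 6.51% in both. Rplp1 was at 512 to 530.0 CPM with vehicle and 267 to 307 with TD139 (log2 fold change −0.83, corrected −0.28) and Rpl4 at 683 to 765 CPM with vehicle and 486 to 580.0 with TD139 (log2 fold change −0.44, corrected −0.16 with adjusted p = 0.149). Of nuclear genes of oxidative phosphorylation, with a median of 891.5 bases, 65 of 80 were lower, 15 after the correction and 15 in both fits (21 to 63 and 0 to 16 with 1 mouse out, median log2 fold change −0.53, corrected −0.08), where of all genes 16.2% were lower, 9.52% after the correction and 6.51% in both. Of proteasome subunits, with a median of 1581 bases, 24 of 37 were lower, 6 after the correction and 5 in both fits (11 to 25 and 0 to 6 with 1 mouse out, median log2 fold change −0.36, corrected −0.08), where of all genes 16.2% were lower, 9.52% after the correction and 6.51% in both. Rpl4 lost its call without TD139-treated mouse 2 or 3 or vehicle-treated mouse 3 (uncorrected adjusted p up to 0.0615 in edgeR).

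Among cell cycle genes, 10 of 19 were lower, 6 after the correction and 6 in both fits (3 to 10 and 0 to 7 with 1 mouse out, median log2 fold change −0.88, corrected −1.03), and 1 was higher, 1 after the correction and 1 in both. The shares over all genes were 16.2% lower, 9.52% after the correction and 6.51% in both. Mki67, the marker of dividing cells, was at 2.86, 3.00 and 3.93 CPM with vehicle, 0.482, 0.0696 and 0 with TD139 and 0.0768, 0.188 and 0 in naive mice. Its log2 fold change was −4.11 (SE 0.84, adjusted p = 0.0079 by edgeR), and its transcript of 10061 bases is longer than that of most genes that were lower. Mcm3, of the replicative helicase, was at 5.08 to 7.39 CPM with vehicle and 2.37 to 4.23 with TD139 (log2 fold change −0.87, corrected −0.79), and the member called higher, the cyclin Ccna2, at 28.6 to 30.2 CPM with vehicle and 34.6 to 56.5 with TD139 (log2 fold change 0.62, corrected 0.56). Of histone genes 3 of 27 were higher, 6 after the correction and 3 in both fits (1 to 3 and 0 to 8 with 1 mouse out, median log2 fold change 0.23, corrected 0.42), and 3 were lower, 1 after the correction and 0 in both, where of all genes 17.2% were higher, 9.45% after the correction and 6.13% in both, and 16.2% of all genes were lower. The histone gene Hist2h2bb was at 0.773 to 1.04 CPM with vehicle and 2.00 to 3.83 with TD139 (log2 fold change 1.85, corrected 2.34) and Hist1h1e at 1.24 to 2.51 CPM with vehicle and 3.00 to 7.10 with TD139 (log2 fold change 1.53, corrected 1.81). Most histone transcripts lack a poly(A) tail. For histone genes, without vehicle-treated mouse 2, the median was 0.41 and 0.84 corrected. For histone genes, without TD139-treated mouse 1, the median was 0.46 and 0.74 corrected. Histone genes had a median of 0.12 and a corrected median of 0.23 without vehicle-treated mouse 3 and a median of 0.03 and a corrected median of 0.26 without TD139-treated mouse 2. Mki67, Mcm3, Ccna2 and Hist1h1e lost their calls without TD139-treated mouse 2, Mcm3, Ccna2 and Hist1h1e without TD139-treated mouse 3 or vehicle-treated mouse 3, and Hist1h1e without vehicle-treated mouse 1 (uncorrected adjusted p up to 0.109 in edgeR). For Mki67 the uncorrected log2 fold change was −6.31 without TD139-treated mouse 1.

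For comparison, 17.2% of all genes were higher and 16.2% lower, and 9.45 and 9.52% after the correction. Of clock genes 5 of 16 were higher, 3 after the correction and 3 in both fits (3 to 5 and 0 to 2 with 1 mouse out, median log2 fold change 0.16, corrected 0.07), and 1 was lower, 1 after the correction and 0 in both, with Arntl, for BMAL1, at 64.2 to 80.1 CPM with vehicle and 88.4 to 128 with TD139 (log2 fold change 0.69, corrected 0.66). Of immediate early genes 3 of 17 were lower, 3 after the correction and 2 in both fits (2 to 3 and 0 to 4 with 1 mouse out, median log2 fold change −0.10, corrected 0.04), and 0 were higher, 1 after the correction and 0 in both, with Jund at 229 to 238 CPM with vehicle and 122 to 156 with TD139 (log2 fold change −0.70, corrected −0.32). For glycolysis and lactate transport, 6 of 19 were lower, 1 after the correction and 1 in both fits (2 to 7 and 0 to 1 with 1 mouse out, median log2 fold change −0.25, corrected −0.08), and 1 was higher, 1 after the correction and 0 in both, with Aldoc, the aldolase of glia, at 785 to 861 CPM with vehicle and 481 to 619 with TD139 (log2 fold change −0.59, corrected −0.48). Of genes of endothelial cells and pericytes 4 of 16 were lower, 2 after the correction and 2 in both fits (1 to 6 and 0 to 5 with 1 mouse out, median log2 fold change −0.28, corrected −0.17), and 1 was higher, 0 after the correction and 0 in both, with Vwf, the endothelial clotting factor carrier, at 6.71 to 7.80 CPM with vehicle and 1.90 to 3.48 with TD139 (log2 fold change −1.33, corrected −1.60). Of noncoding RNAs 4 of 15 were lower, 2 after the correction and 1 in both fits (0 to 4 and 0 to 3 with 1 mouse out, median log2 fold change −0.14, corrected −0.12), and 2 were higher, 0 after the correction and 0 in both. Neat1, the architectural RNA of paraspeckles, was at 57.3, 89.2 and 100.03 CPM with vehicle and 53.5, 36.9 and 43.8 with TD139. Its log2 fold change was −0.88 (SE 0.21, adjusted p = 0.0126 by edgeR) and, after correction, −1.61 (SE 0.28, adjusted p = 0.0135 by edgeR), the larger size after correction being that of a lower gene with a transcript of 20771 bases. For the circadian clock, without vehicle-treated mouse 2, 3 were higher and 1 after the correction. For immediate early genes, also without that mouse, 1 was higher and 3 after the correction. For noncoding RNAs, also without that mouse, 0 were higher and 0 after the correction. For the circadian clock, without TD139-treated mouse 1, 3 were lower and 4 after the correction. For immediate early genes, also without that mouse, 0 were higher and 3 after the correction. For glycolysis and lactate, also without that mouse, 2 were higher and 3 after the correction. For endothelial cells and pericytes, also without that mouse, 6 were lower and 5 after the correction. Endothelial cells and pericytes had a median of −0.19 without vehicle-treated mouse 3 and a median of −0.19 without TD139-treated mouse 2. Noncoding RNAs had a corrected median of 0.02 without vehicle-treated mouse 3. Vwf and Neat1 lost their calls without TD139-treated mouse 3, and Neat1 without TD139-treated mouse 2 (uncorrected adjusted p up to 0.0592 in edgeR).

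**Figure D4:**
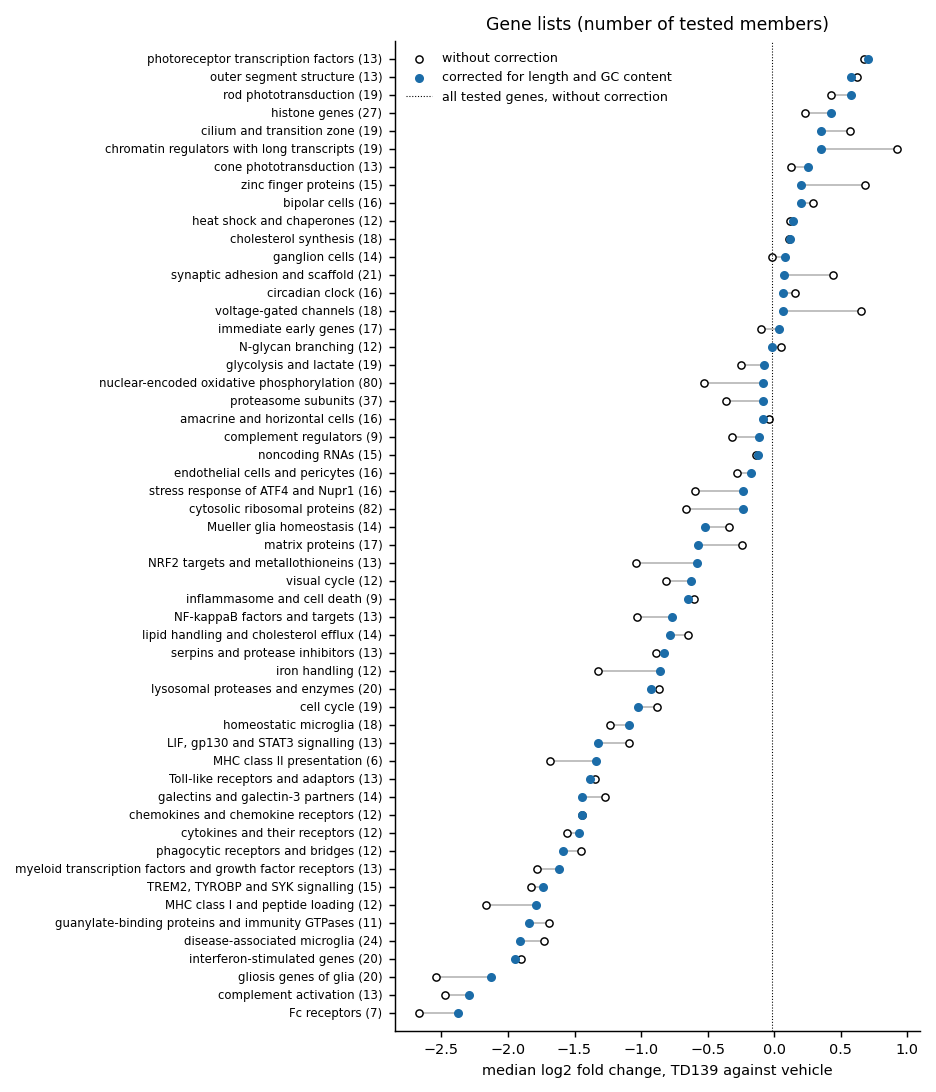
Median log2 fold change of each gene list with at least 5 tested genes, without correction (open) and corrected for length and GC content (filled), with the number of tested genes in brackets. The gliosis list is at −2.54 and −2.13 and the list of disease-associated microglia at −1.73 and −1.91, while voltage-gated channels move from 0.66 to 0.07 and oxidative phosphorylation from −0.53 to −0.08.

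Motif shares were also counted in the promoters of genes called in both fits. Of 759 promoters of lower genes 5.40% held the interferon-stimulated response element, 5.27% the PU.1 site GAGGAAGT, 9.22% the AP-1 site TGANTCA and 2.24% the NF-kappaB site (GGG and, after any 2 bases, TTTCC). In 729 promoters of higher genes the shares were 1.37, 2.33, 3.98 and 0.96%, and over all promoters 2.73, 2.70, 4.80 and 1.62%. The STAT site TTCCNGGAA was in 1.32% of lower, 0.82% of higher and 1.19% of all promoters. The shares of the cyclic AMP response element TGACGTCA were 2.11, 3.16 and 3.14%, those of CTAATCC were 2.77, 2.19 and 2.07% and those of the GC box GGGGCGGGG were 23.1, 22.8 and 21.3%. Both strands were searched, and a promoter counted once for each motif. These shares are descriptions without a test.

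The 3 TD139-treated mice were not alike. Relative to the mean of the vehicle-treated mice, the median of gliosis genes was −1.48, −2.71 and −3.01 log2 units for TD139-treated mice 1, 2 and 3 and −2.32, −1.79 and −1.99 for the naive mice. For complement activation the medians were −1.12, −3.58 and −4.24 and −3.60, −2.59 and −2.83, and for MHC class I −1.25, −2.39 and −2.73 and −1.79, −1.80 and −1.87. Mouse 1 lay between the vehicle-treated and the naive mice in these lists, and mice 2 and 3 lay within or below the range of the naive mice. Outer segment genes had medians of 0.32, 0.87 and 0.63 in TD139-treated and 0.59, 0.59 and 0.60 in naive mice. Ribosomal protein genes, which follow the trend with length, were at −0.51, −0.72 and −0.73 against 0.10, −0.18 and −0.33 without correction and at −0.21, −0.22 and −0.31 against −0.00, −0.12 and −0.12 with it. Naive levels are printed for orientation, since vehicle-treated mice would be shared by both comparisons.

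**Figure D5:**
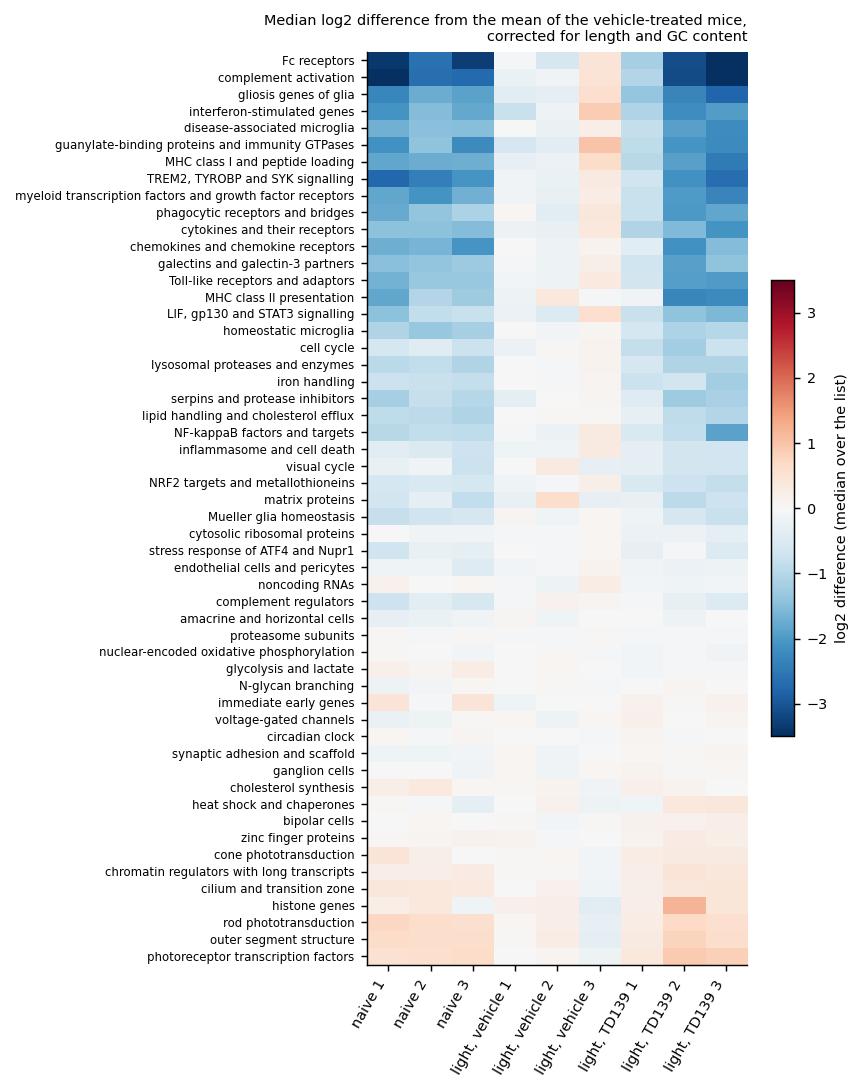
Median log2 difference of each gene list from the mean of the vehicle-treated mice, corrected for length and GC content, in each of the 9 mice. For complement activation, TD139-treated mouse 1 is at −1.03, mice 2 and 3 at −3.14 and −3.88, and the naive mice at −3.68, −2.65 and −2.73.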

How the data were processed

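Retinal RNA was measured in 9 mice, 3 per group, by stranded mRNA sequencing with 50-base single reads on 2 flow cells. The authors deposited 1 count table per library, whose values are whole-number counts per gene, and the titles name the mouse and the flow cell. The study quantified expression with the RNA Express software of Illumina BaseSpace, and the submitters' processing notes name mm10. The aligner, strand setting and annotation of the counting are not given in the sources used here, so overlapping and antisense genes are uncertain. The 2 runs of a mouse differed little beyond counting error (chi-square per degree of freedom 1.63 to 1.80) and were summed. Reads outside genes (16.5 to 22.8%) and ambiguous reads (0.303 to 0.471%) were dropped, which left 26171887 to 30201517 reads on genes per mouse.

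In edgeR 4.0.16 (R 4.3.3), filterByExpr kept 15196 genes, scaled by TMM and tested by the robust quasi-likelihood test in 1 fit of 9 mice. Mouse, not run, was the replicate, so p-values measure the spread between animals. The second fit added an offset per mouse from natural splines (4 degrees of freedom) on log10 transcript length and on GC content. Lengths and GC content were those of the longest GENCODE M21 basic transcript, with 98.4% of symbols matched. The standard error is the fold change divided by the square root of F. Promoters came from RefSeq. The fits were also run on simulated data, whose length trend was taken from the curves fitted to these mice. That run could not show whether the correction suits the real trend.

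Genes named were the galectins, the 12 highest and 12 lowest fold changes called in both fits with the same sign, a mean of at least 50 counts and no overlap of the groups, up to 4 of the most abundant called members of each of 61 lists, and up to 3 called against the list's median. Some genes that meet this rule are not reported here. Up to 5 genes of at least 500 counts whose sign turned with the correction could also be named. Ifit1, Isg15, Bst2, Cngb1, Guca1a and Gucy2f, whose promoters are printed, and Gfap, Cx3cr1, P2ry12 and Tmem119 were added after their values were seen. The comparison, lists and tests were chosen with earlier results of these data known. Alternatives were other normalizations and filters, each flow cell, light-exposed mice alone, a replicate block, DESeq2 1.42.0, limma 3.58.1 voom, and leaving out each mouse.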

Additional observations from a re-analysis of the deposited data

Results flagged for a closer look

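Reads that fell outside annotated genes, which enter no comparison of genes, made up 21.3, 22.8 and 22.6% of the reads of TD139-treated mice 1, 2 and 3. All 3 values were above those of the vehicle-treated mice (16.5 to 19.4%) and the naive mice (19.1 to 19.9%). The part of these reads in the trend with transcript length was not tested.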

How the results depend on the processing

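Without correction, the number of genes higher with TD139 was 2617 and of genes lower 2455. It ranged from 867 to 2995 and from 759 to 2931 when 1 mouse was left out. Allowing for length and GC content gave 1424 and 1435, and length alone 1584 higher genes. The corrected numbers ranged from 0 to 2257 and from 0 to 2201 over the mice left out, and with vehicle-treated mouse 2 and TD139-treated mouse 1 both out, a choice made after seeing the data, they were 2183 and 2132. The Spearman correlation of length with fold change, 0.50, was −0.0486 after length and GC correction, −0.0408 after length correction alone and 0.38 with no filter on low counts. Other scaling, filters, flow cells and tools gave the following counts, higher before lower: DESeq2 size factors 2642 and 2457, library size alone 1942 and 3040, no filter 2500 and 2266, at least 1 CPM 2601 and 2505, the first flow cell run 2338 and 2148, the second 2381 and 2294, light-exposed mice alone 2645 and 2439, DESeq2 3024 and 2839, voom 3550 and 3480. Replicate numbers did not pair the mice, since same-numbered mice deviated with correlations of −0.20, −0.26 and −0.26. A replicate block gave 2436 and 2336 genes, and with length and GC correction 1336 and 1317 genes and a length correlation of −0.0497. The sign of 3 named genes turned. Guca1a (−0.08) became 0.49 with length and GC correction, 0.40 with length alone, 0.48 with the block added, 0.62 with length and GC correction and vehicle-treated mouse 2 and TD139-treated mouse 1 both out, and between −0.12 and 0.62 over all fits without 1 mouse, corrected or not. In the same order Ssr1 (0.33) became −0.26, −0.20, −0.26, −0.26 and −0.31 to 0.37, and Pmm1 (−0.30) became 0.24, 0.11, 0.24, 0.25 and −0.35 to 0.26. With the same 2 mice out and no correction the signs did not turn for Ssr1 (0.38) and Pmm1 (−0.32), though Pmm1 lost its call, and Guca1a was at 0.04. Why these differ was not tested. With 3 mice per group, calls near the threshold depend on single animals, and genes under the floor of 3 counts are not resolved.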
